A study of Homo sapiens with 17 samples.

Results

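The genes that act next to the T cell receptor, 9 of the 25548 gene symbols in the deposited table, were followed in Jurkat cells exposed to ILT3.Fc. They were taken by symbol: the kinase genes LCK and ZAP70, the adaptor genes LAT, LCP2 and GRAP2, the effector genes PLCG1 and VAV1, the costimulatory receptor gene CD28, and PTPRC, which encodes the phosphatase CD45. All 9 had 1 line each in the table, and all 9 passed the filter on low values (a mean of at least 1 FPKM over the libraries). FPKM counts fragments relative to the length of a transcript and to all mapped fragments of its library.

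When a T cell receptor binds its ligand, LCK phosphorylates the signalling motifs of the CD3 and zeta chains, and ZAP70 docks there and is activated. CD45 keeps LCK ready by removing an inhibitory phosphate. ZAP70 then phosphorylates LAT and SLP-76 (gene LCP2), which the adaptor GADS (gene GRAP2) joins into one complex. This complex gathers phospholipase C gamma 1 (PLCG1), which starts calcium and diacylglycerol signalling, and the exchange factor VAV1, which acts on the cytoskeleton. CD28 adds a second signal through phosphoinositide 3-kinase and GRB2 family adaptors. Much of this order of events was worked out in Jurkat cells and in mutants of them that lack single members.

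Jurkat cells are an established human line that came from an acute leukaemia of T cells, and they are deficient in the lipid phosphatase SHIP1 (gene INPP5D). ILT3.Fc is a soluble protein that carries the outer portion of ILT3, an inhibitory receptor of antigen-presenting cells, fused to an antibody Fc fragment. The cells, grown in serum-containing medium, received 0, 12.5 or 25 µg/ml for 6, 12 or 24 h, and 17 libraries of polyadenylated RNA were available: 2 for each of 8 combinations of dose and time, and 1 for untreated cells at 12 h. No control Fc protein and no receptor stimulus is named in the labels, so a change is one against cells without ILT3.Fc. The labels call the second library of a group a duplicate without saying whether it came from a separate culture. The p-values therefore measure only the spread between these libraries, which may be technical.

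The libraries held T cell transcripts: all 11 T cell identity markers found in the table were above a mean of 1 FPKM, and the sum of these markers ranged from 1363 to 1444 FPKM in untreated and from 1356 to 1475 FPKM at 25 µg/ml. None of the listed myeloid, erythroid or epithelial markers reached a mean of 1 FPKM. Among B cell and NK cell markers, CD79A (39.5 FPKM), CR2 (1.92 FPKM) and NKG7 (5.20 FPKM) did. The shallowest library had 0.67 of the relative depth of the deepest, and absolute depth is unknown. Sequencing lane 4 held the 24 h libraries and the first replicates of 6 h, and lane 5 the 12 h libraries and the second replicates of 6 h. One 24 h library, replicate 2 of 25 µg/ml, differed from the rest in that its deviations from the mean library followed the GC content of genes (Spearman correlation of 0.57, taken over genes and not over independent samples), and untreated replicate 2 at 24 h went the other way (-0.37). In replicate 1 of 12.5 µg/ml at 6 h the deviations followed gene length (-0.40).

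The sequences upstream of 3 members are shown: PLCG1 and CD28, which had the smallest p of the members that rose at the higher dose over all times, and PTPRC, the member that fell at 24 h. Each line holds the 250 bases before the annotated start of the gene in RefSeq (GRCh38.p14), all on the plus strand: chr20:41137293-41137542 for PLCG1, chr2:203706389-203706638 for CD28 and chr1:198638790-198639039 for PTPRC. Capitals mark the ETS core GGAAG (or CTTCC on the other strand) and the GC box GGGCGG (or CCGCCC).
PLCG1: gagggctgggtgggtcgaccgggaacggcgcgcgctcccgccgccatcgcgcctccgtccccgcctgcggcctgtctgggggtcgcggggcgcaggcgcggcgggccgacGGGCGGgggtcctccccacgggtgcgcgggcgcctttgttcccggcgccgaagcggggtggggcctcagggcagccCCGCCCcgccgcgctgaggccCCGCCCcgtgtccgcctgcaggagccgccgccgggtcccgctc
CD28: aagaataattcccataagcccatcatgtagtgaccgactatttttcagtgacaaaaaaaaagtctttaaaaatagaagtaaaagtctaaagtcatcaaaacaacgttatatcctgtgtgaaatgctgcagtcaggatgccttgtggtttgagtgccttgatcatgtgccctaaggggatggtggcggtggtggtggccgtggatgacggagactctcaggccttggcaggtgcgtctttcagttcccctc
PTPRC: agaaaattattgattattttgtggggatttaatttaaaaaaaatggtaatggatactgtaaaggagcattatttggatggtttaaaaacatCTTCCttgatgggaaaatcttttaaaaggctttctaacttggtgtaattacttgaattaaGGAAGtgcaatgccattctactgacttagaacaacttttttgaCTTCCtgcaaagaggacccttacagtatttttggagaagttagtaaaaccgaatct
The windows differ in composition. That of PLCG1 was 82.8% G and C, with 3 GC boxes and no ETS core. The PTPRC window was 31.2% G and C, with 3 ETS cores and no GC box. The CD28 window was 45.2% G and C and had neither motif. Of 34788 RefSeq windows of this length, 65.1% held an ETS core and 42.6% a GC box. All 9 members were matched, to 14 windows in all, of which 10 held an ETS core and 4 a GC box. A match is a description of letters, not a binding site.

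By level per length, LCK was the most abundant of the 9 and CD28 the least. LCK averaged 316 FPKM over the 17 libraries, above 98.2% of the genes tested, followed by ZAP70 at 155 FPKM and PTPRC at 111 FPKM. GRAP2 (72.1 FPKM) and LAT (69.2 FPKM) had overlapping ranges, with GRAP2 above LAT in 12 of 17 libraries. VAV1 (44.4 FPKM) and PLCG1 (43.9 FPKM) also overlapped, with VAV1 the higher in 10 of 17. LCP2 (35.1 FPKM) stood above CD28 (30.3 FPKM) in 16 of 17 libraries. LCK, ZAP70 and PTPRC kept their order in every library. The coefficient of variation over all libraries was lowest for LCK (4.03%) and highest for LAT (8.21%), against a median of 5.51% for the 3291 tested genes in the same range of levels. It was above that median for 6 members (ZAP70, PTPRC, LAT, PLCG1, LCP2 and CD28).

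**Figure D1:**
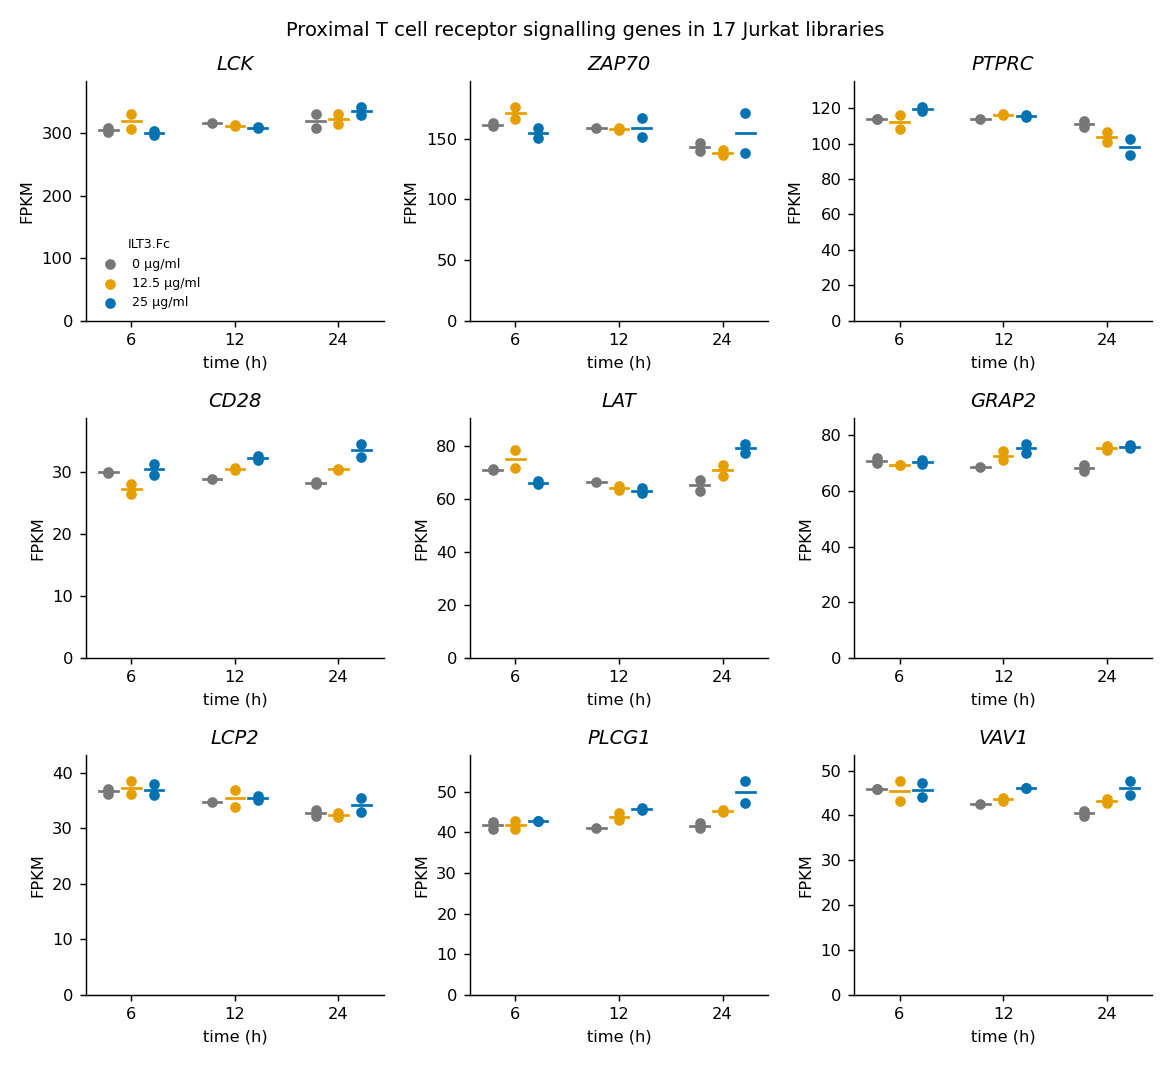
FPKM (vertical axes, from 0) of the 9 genes at 6, 12 and 24 h; each point is 1 library, each short line a group mean, and colour gives the dose of ILT3.Fc. At 24 h the mean at 25 µg/ml lies above that of untreated cells for 8 genes and below it for PTPRC, and all shifts are small beside the levels.

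Exposure to 25 µg/ml was compared with untreated cells to find which of these transcripts followed ILT3.Fc. Over all times, 3 of 9 members rose, PLCG1, CD28 and GRAP2, and none fell. The changes were small, 0.09 to 0.15 on the scale of log2(FPKM + 1), on which changes of low genes are understated. Calls were made in limma at a threshold of 0.05, after Benjamini-Hochberg adjustment over all 12015 genes tested. By that rule 9.47% of all genes tested were called in this comparison, 5.47% as higher. The split of 657 higher and 481 lower genes turned to 393 and 765 with median centring, 539 and 653 with quantile normalization, and 754 and 974 with correction for GC content and length. The median member changed by 0.03, beside 0.02 for the median gene.

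CD28 gave the smallest p of the 9. It measured 30.1 and 29.9 FPKM in untreated cells at 6 h, 28.9 FPKM at 12 h, and 28.4 and 28.2 FPKM at 24 h. At 12.5 µg/ml it measured 26.5 and 28.2 FPKM at 6 h, 30.3 and 30.7 FPKM at 12 h, and 30.3 and 30.6 FPKM at 24 h. At 25 µg/ml it measured 29.6 and 31.4 FPKM at 6 h, 32.1 and 32.7 FPKM at 12 h, and 34.6 and 32.5 FPKM at 24 h. The 2 doses and the untreated group were thus separated and in order of dose at 12 and 24 h, while at 6 h the libraries at 12.5 µg/ml were the lowest. The untreated library at 12 h had no duplicate, which makes such a separation easier to reach. The share of all genes separated in this way at 12 and 24 h is not reported here. CD28 rose over all times by 0.14 (SE 0.027, limma adjusted p = 0.0103) and at 24 h by 0.24 (SE 0.044, limma adjusted p = 0.00576), an increase of 18.7% in mean FPKM. At 12 h its change was 0.16 (limma adjusted p = 0.406).

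PLCG1, whose product makes inositol trisphosphate and diacylglycerol, had a mean that rose with dose at all 3 times. At 6 h its means were 41.7, 41.8 and 42.9 FPKM, with libraries at 12.5 µg/ml on both sides of the untreated pair. In untreated cells it measured 42.5 and 40.9 FPKM at 6 h, 41.1 FPKM at 12 h, and 42.3 and 41.0 FPKM at 24 h. At 12.5 µg/ml the values were 40.8 and 42.8 FPKM at 6 h, 43.0 and 44.7 FPKM at 12 h, and 45.1 and 45.5 FPKM at 24 h. At 25 µg/ml they were 42.8 and 42.9 FPKM at 6 h, 45.5 and 45.9 FPKM at 12 h, and 47.2 and 52.7 FPKM at 24 h. PLCG1 was the only member whose libraries at 25 µg/ml all lay above the untreated ones at each time, as 7.74% of all genes tested did, and the only one whose mean rose with dose at each time, as 3.23% did. The gap at 6 h was within the spread of the untreated pair. It rose over all times by 0.15 (SE 0.031, limma adjusted p = 0.0140) and at 24 h by 0.25 (SE 0.049, limma adjusted p = 0.00733), or 19.9% in mean FPKM.

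GRAP2, the adaptor that links LAT to SLP-76, changed least of the 3. Untreated cells gave 71.7 and 70.1 FPKM at 6 h, 68.8 FPKM at 12 h, and 69.3 and 67.4 FPKM at 24 h. Cells at 12.5 µg/ml gave 69.5 FPKM in both libraries at 6 h, 74.3 and 71.1 FPKM at 12 h, and 76.2 and 74.6 FPKM at 24 h. Cells at 25 µg/ml gave 71.3 and 69.6 FPKM at 6 h, 77.0 and 73.8 FPKM at 12 h, and 76.4 and 75.4 FPKM at 24 h. All treated libraries at 12 and 24 h lay above the untreated ones, and at 24 h the 2 doses overlapped. No share of all genes is reported beside this, and the untreated library at 12 h had no duplicate. GRAP2 rose over all times by 0.09 (SE 0.022, limma adjusted p = 0.0303) and at 24 h by 0.15 (SE 0.036, limma adjusted p = 0.0184). The call over all times was lost in 13 of 25 alternative analyses, among them median centring (0.06, limma adjusted p = 0.144).

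The remaining members did not pass over all times. VAV1 stood at 0.10 (SE 0.031, limma adjusted p = 0.0798), LAT at 0.03, LCP2 at 0.03, ZAP70 at 0.01, LCK at 0.00 and PTPRC at -0.03. The 95% intervals of LCK (-0.06 to 0.07) and PTPRC (-0.10 to 0.04) were narrower than that of ZAP70 (-0.10 to 0.13). No member was called without the 24 h libraries, where CD28 stood at 0.09 (limma adjusted p = 0.295) and PLCG1 at 0.09 (limma adjusted p = 0.218), or without the 12 h libraries, where they stood at 0.13 (0.0743) and 0.15 (0.0708). Of all genes, 0.383% and 4.06% were called in these fits. Within lane 4 CD28 stood at 0.11 and PLCG1 at 0.13, within lane 5 both stood at 0.11, and no member was called in either lane, where 0.35% and 0.0666% of all genes tested were.

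**Figure D2:**
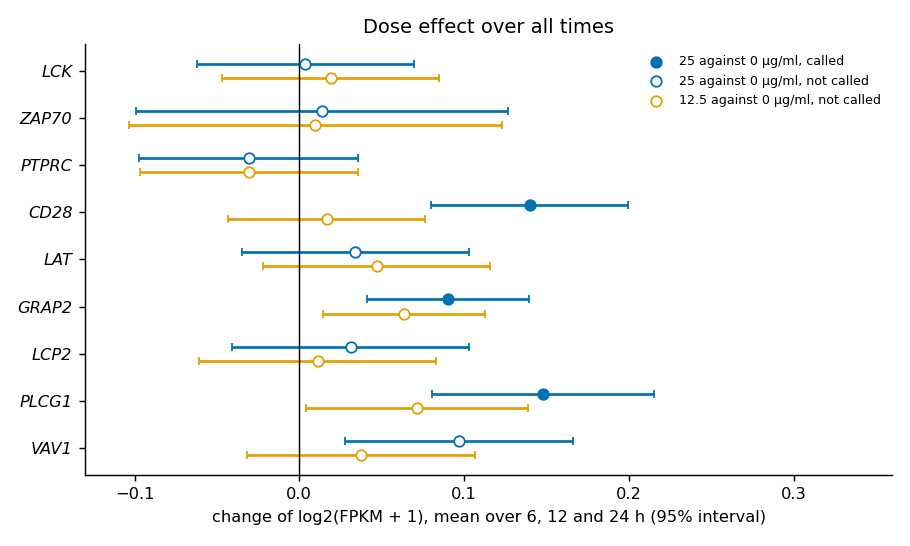
Change of log2(FPKM + 1) from untreated cells, averaged over 6, 12 and 24 h, for each gene at 25 and 12.5 µg/ml; bars are 95% intervals from limma and filled points were called. At 25 µg/ml the points of PLCG1 (0.15), CD28 (0.14) and GRAP2 (0.09) are filled, and at 12.5 µg/ml none is.

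By time, members were called against untreated cells at 24 h only. At 12 h and 25 µg/ml, with 1 untreated library, 6 of 9 members had a positive change without a call. Among them were CD28 (0.16), PLCG1 (0.15) and GRAP2 (0.13). Changes at 24 and 12 h were not compared in a test. At 24 h 5 members rose at 25 µg/ml (LAT, PLCG1, CD28, VAV1 and GRAP2), PTPRC fell, and LCK, ZAP70 and LCP2 did not pass. Of all genes tested, 16.5% were called at 24 h, 10.7% as higher and 5.76% as lower. This balance depended on scaling: 1286 genes were higher and 692 lower as deposited, 758 and 984 with median centring, and 788 and 959 with correction for GC content and length. The median member changed by 0.15 and the median gene by 0.04. All libraries compared at 24 h ran in the same lane.

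LAT, the membrane scaffold that ZAP70 phosphorylates, had the largest change at 24 h. Its values at 24 h were 67.3 and 63.0 FPKM untreated, 72.9 and 68.8 FPKM at 12.5 µg/ml, and 77.5 and 80.9 FPKM at 25 µg/ml, so that the 3 groups did not overlap. At 6 h it went the other way, with 70.8 and 71.4 FPKM untreated, 78.5 and 71.6 FPKM at 12.5 µg/ml, and 66.8 and 65.6 FPKM at 25 µg/ml. The 12 h values were 66.4 FPKM untreated, 64.7 and 63.3 FPKM at 12.5 µg/ml, and 64.1 and 62.2 FPKM at 25 µg/ml. Shares of all genes with groups separated as at 24 h are not reported here. LAT rose at 24 h by 0.28 (SE 0.050, limma adjusted p = 0.00571), or 21.4% in mean FPKM, against -0.10 at 6 h (limma adjusted p = 0.522) and -0.07 at 12 h (limma adjusted p = 0.856).

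VAV1, the exchange factor that acts on the cytoskeleton, measured 41.1 and 39.9 FPKM in untreated cells at 24 h, 43.6 and 42.7 FPKM at 12.5 µg/ml, and 44.5 and 47.6 FPKM at 25 µg/ml. At 12 h it measured 42.5 FPKM untreated, 43.3 and 43.9 FPKM at 12.5 µg/ml, and 46.2 and 46.1 FPKM at 25 µg/ml. The groups were in order of dose without overlap at both times. No share of all genes is reported beside this order, and the untreated library at 12 h had no duplicate. At 6 h they overlapped, with 45.9 FPKM in both untreated libraries, 47.7 and 43.3 FPKM at 12.5 µg/ml, and 47.3 and 44.2 FPKM at 25 µg/ml. VAV1 rose at 24 h by 0.18 (SE 0.050, limma adjusted p = 0.0338).

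PTPRC was the single member that fell. At 24 h it measured 109.6 and 112.5 FPKM untreated, 101.0 and 106.6 FPKM at 12.5 µg/ml, and 102.4 and 93.3 FPKM at 25 µg/ml. Every treated library was below both untreated ones, with no share of all genes reported beside this, and the 2 doses overlapped. At 6 h it measured 113.7 and 114.0 FPKM untreated, 108.2 and 116.0 FPKM at 12.5 µg/ml, and 118.6 and 120.8 FPKM at 25 µg/ml, with 25 µg/ml on top. At 12 h all 5 libraries lay between 114.1 and 116.7 FPKM. PTPRC fell at 24 h by 0.18 (SE 0.048, limma adjusted p = 0.0278), a change of -11.9% in mean FPKM.

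The kinase genes and LCP2 were not called at 24 h. LCK ranged from 297 to 343 FPKM over all libraries, and at 24 h its values were 332 and 308 FPKM untreated and 329 and 343 FPKM at 25 µg/ml, which overlapped. ZAP70 ranged from 136 to 176 FPKM, and its pair at 25 µg/ml and 24 h, 138 and 171 FPKM, spanned the untreated values of 146 and 140 FPKM. LCP2 ranged from 32.0 to 38.5 FPKM. Their changes at 24 h were 0.07 (95% interval -0.03 to 0.18), 0.11 (-0.07 to 0.29) and 0.06 (-0.06 to 0.17), and limma adjusted p was 0.336, 0.409 and 0.502.

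**Figure D3:**
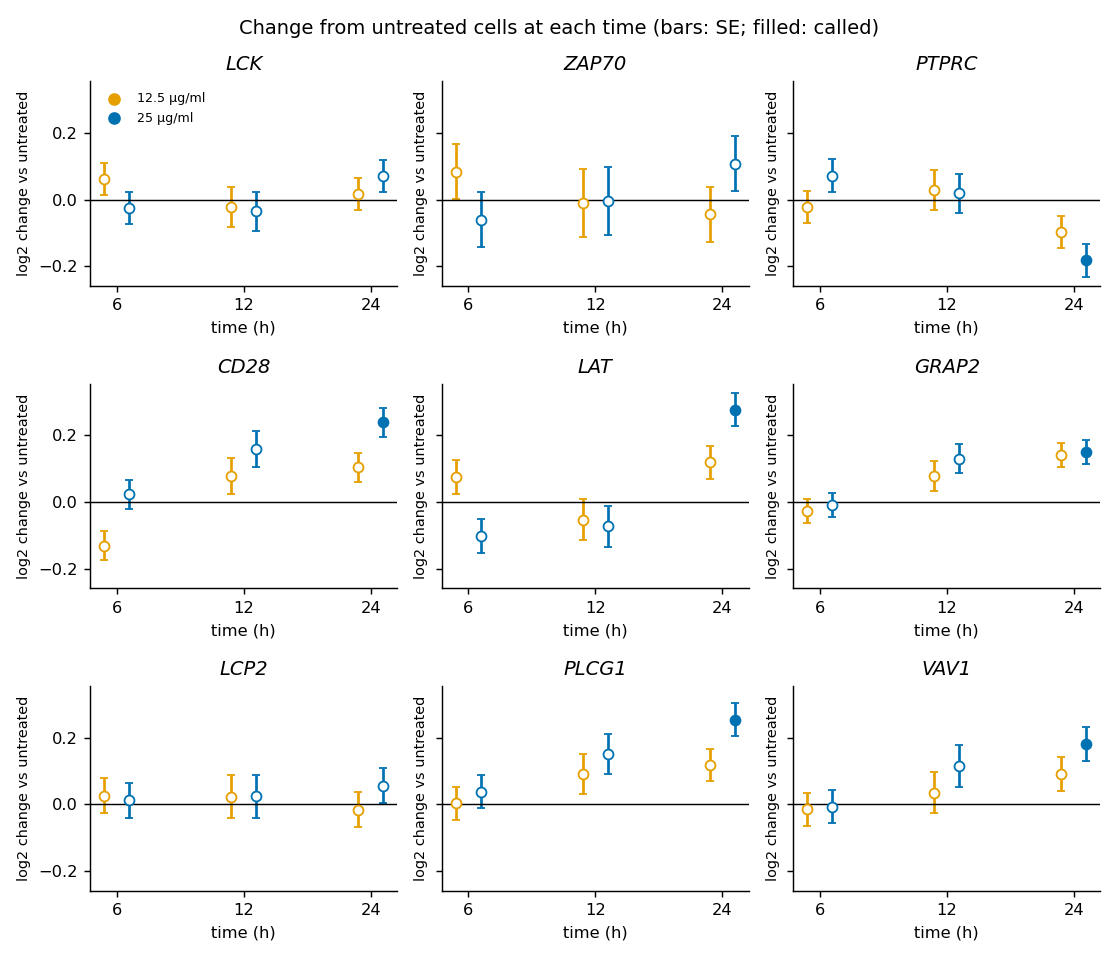
Change of log2(FPKM + 1) from untreated cells at 6, 12 and 24 h for each gene, at 12.5 and 25 µg/ml; bars are standard errors from limma and filled points were called. Filled points appear at 24 h and 25 µg/ml for 6 genes, from -0.18 for PTPRC to 0.28 for LAT.

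The 24 h calls moved with single libraries and with GC content, whose part in them was not tested beyond the following values. Without untreated replicate 2 none of the 6 was called, with CD28 at 0.23 (limma adjusted p = 0.05004, just above the threshold), and 4.02% of all genes were. Without replicate 2 of 25 µg/ml, the library that followed GC content, CD28 alone was called, at 0.28 (limma adjusted p = 0.0135), while LAT stood at 0.25 (0.0511), PLCG1 at 0.18 (0.0544), GRAP2 at 0.16 (0.0696), VAV1 at 0.13 (0.226) and PTPRC at -0.12 (0.213), and 5.01% of all genes were called. VAV1 (0.20, limma adjusted p = 0.0775) and PTPRC (-0.20, 0.0702) did not pass without untreated replicate 1. Without replicate 1 of 25 µg/ml GRAP2 did not pass (0.14, limma adjusted p = 0.0567) and ZAP70 did (0.26, 0.0247). By GENCODE v29 the transcripts of PTPRC had the lowest GC content of the 9 (39.9%), followed by CD28 (42.6%), LCP2 (46.5%), GRAP2 (52.1%), PLCG1 (55.7%), VAV1 (56.2%), LCK (57.7%), LAT (61.3%) and ZAP70 (62.3%). After each library was corrected for GC content and length, 15.6% of all genes and 4 members were called at 24 h: CD28 at 0.26 (limma adjusted p = 0.00107), PLCG1 at 0.16 (0.00762), LAT at 0.14 (0.0138) and PTPRC at -0.14 (0.0184). GRAP2 (0.11, limma adjusted p = 0.0804) and VAV1 (0.08, 0.229) no longer passed. With median centring GRAP2 (0.11, limma adjusted p = 0.0944) and VAV1 (0.14, 0.104) did not pass either. LCK and ZAP70 changed sign under the correction, to -0.03 and -0.04, and neither passed with or without it. Over all times the same correction left CD28 at 0.13 (limma adjusted p = 0.00428), PLCG1 at 0.11 (0.00459) and GRAP2 at 0.08 (0.0485).

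**Figure D4:**
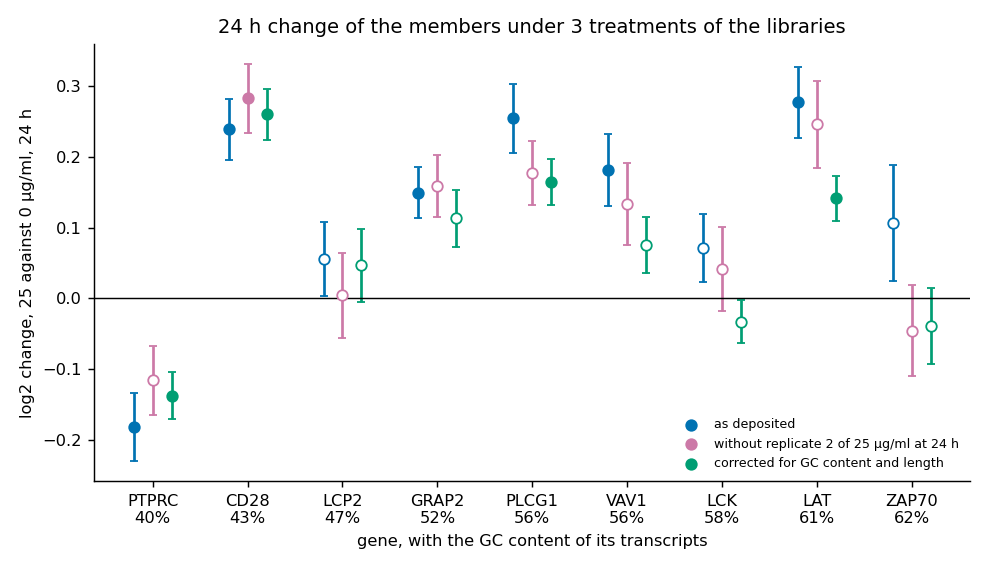
Change of log2(FPKM + 1) at 24 h, 25 against 0 µg/ml, for each gene ordered by the GC content of its transcripts, as deposited, without replicate 2 of 25 µg/ml, and with each library corrected for GC content and length; bars are standard errors from limma and filled points were called. CD28 is filled in all 3 (0.24, 0.28 and 0.26), whereas LAT goes from 0.28 to 0.14 with the correction.

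At 6 and 12 h no member was called at 25 µg/ml, where limma called 0.225% and 0.0499% of all genes tested. With no adjustment, 0 members at 6 h and 3 at 12 h (PLCG1, GRAP2 and CD28) had a p under 0.05, beside 10.3% and 8.61% of all genes. The members lay between -0.10 (LAT) and 0.07 (PTPRC) at 6 h and between -0.07 (LAT) and 0.16 (CD28) at 12 h. The 12 h comparison has 1 untreated library, which was assumed to vary like the other groups.

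The difference between the effects of 25 µg/ml at 24 and 6 h was tested as an interaction. LAT alone was called, as higher, at 0.38 (SE 0.071, limma adjusted p = 0.0225), where 3.3% of all genes were called and 2.35% as higher. That share ranged from 0.0416% without replicate 2 of 25 µg/ml at 6 h to 7.03% without replicate 1 of 25 µg/ml at 24 h. PTPRC stood at -0.25 (SE 0.068, limma adjusted p = 0.0683), CD28 at 0.22 (SE 0.062, limma adjusted p = 0.0789) and PLCG1 at 0.22 (SE 0.069, limma adjusted p = 0.108), and the other 5 lay between 0.04 (LCP2) and 0.19 (VAV1). The call of LAT was lost when any of 6 single libraries of the 8 compared was left out (0.33 to 0.39, limma adjusted p from 0.0650 to 0.106), all but replicate 1 of the untreated and of the 25 µg/ml group at 24 h, and with correction for GC content and length (0.17, limma adjusted p = 0.0816).

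The lower dose gave no called member. Over all times at 12.5 µg/ml, 0.283% of all genes tested were called by limma, and 7.45% without replicate 2 of 12.5 µg/ml at 6 h, where still no member was. Without any other single library the share lay between 0.0333% and 0.583%. GRAP2 stood at 0.06 (SE 0.022, limma adjusted p = 0.313) and PLCG1 at 0.07 (SE 0.031, limma adjusted p = 0.429). These 2 had an unadjusted p under 0.05, beside 10.9% of all genes. The other 7 lay between -0.03 (PTPRC) and 0.05 (LAT). At 24 h and 12.5 µg/ml 0.117% of all genes were called. The members called at 25 µg/ml stood at 0.14 (GRAP2), 0.12 (LAT and PLCG1), 0.10 (CD28), 0.09 (VAV1) and -0.10 (PTPRC). Each lay between 0 and its value at 25 µg/ml, as did LCK at 0.02. ZAP70 (-0.04) and LCP2 (-0.02) had the opposite sign to that at 25 µg/ml (0.11 and 0.06). The share of all genes with a value in between is not reported here. The comparisons of both doses with untreated cells share the untreated libraries. Setting the doses against each other, which does not use those libraries, no member was called over all times, and 0.283% of all genes were. CD28 was the nearest, 0.12 higher at 25 µg/ml (SE 0.025, limma adjusted p = 0.102), and the other members lay between -0.02 (LCK) and 0.08 (PLCG1). Without replicate 2 of 12.5 µg/ml at 6 h CD28 stood at 0.14. That group then held only replicate 1, whose deviations followed gene length (-0.40) and where CD28 was lowest (26.5 FPKM). In the fit of all libraries with no adjustment 2 members, CD28 and PLCG1, had a p under 0.05 between the doses, beside 11.9% of all genes.

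Culture time was then compared with sequencing lane as a term, since the times were split between lanes. From 6 to 24 h, over all doses, LCP2 fell by 0.15 (SE 0.038, limma adjusted p = 0.0258), PTPRC by 0.12 (SE 0.033, limma adjusted p = 0.0285) and VAV1 by 0.12 (SE 0.030, limma adjusted p = 0.0243). CD28 rose by 0.10 (SE 0.028, limma adjusted p = 0.0403). The other 5 did not pass, among them ZAP70 at -0.16 (limma adjusted p = 0.0870) and PLCG1 at 0.11 (limma adjusted p = 0.0548). Of all genes, 19.3% were called, 9.01% as higher and 10.3% as lower. LAT, GRAP2 and LCK lay between -0.01 and 0.05. With lane as a term these values are by construction those within lane 4. Fitted in lane 4 alone, 1 member, LCP2, was called, and 13.5% of all genes were. CD28 lost its call in 13 of 22 alternatives, PTPRC in 8, VAV1 in 7 and LCP2 in 4, and without replicate 1 of 25 µg/ml at 6 h no member was called, and 7.02% of all genes were. From 6 to 12 h no member was called by limma, where 0.466% of all genes were. With no adjustment 1 member (LAT) had a p under 0.05, beside 13.3% of all genes. The members lay between -0.11 (LAT) and 0.05 (GRAP2).

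The change from 6 to 24 h was also read at each dose. In untreated cells no member was called from 6 to 24 h, where 1.58% of all genes were, and VAV1 was nearest at -0.22 (limma adjusted p = 0.0510). The other members called over all doses stood at -0.15 (LCP2), -0.01 (PTPRC) and -0.05 (CD28) in untreated cells. The changes of PTPRC and CD28 over all doses thus lay mostly in treated cells. At 12.5 µg/ml CD28 rose by 0.18 (limma adjusted p = 0.0348), with 8.72% of all genes called and 4% as higher. At 25 µg/ml LAT rose by 0.23 (limma adjusted p = 0.0190), PLCG1 by 0.22 (limma adjusted p = 0.0278) and CD28 by 0.16 (limma adjusted p = 0.0345), PTPRC fell by 0.27 (limma adjusted p = 0.00939), and 14.2% of all genes were called, 8.69% as higher and 5.52% as lower. The test of the difference between 25 µg/ml and untreated cells is the interaction above, in which LAT alone passed.

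Of the members, 5 had group means that spanned at least 0.25 on the log2 scale, and for these 5 the genes with the nearest profile over the 9 groups of dose and time were found by root mean square difference of centred log2 means. For PTPRC these were SYK, the sister kinase of ZAP70 (0.018), and TTC13 (0.019). For CD28 KIAA1549 was among them (0.020). For PLCG1 they were C7orf70 (0.018) and PTPN23, of the non-receptor tyrosine phosphatase family (0.020). For LAT they were SEPX1, a methionine sulfoxide reductase (0.023), and PNKD (0.027), and for ZAP70 RAB11FIP3, an effector of RAB11 (0.023), and the chaperone gene CALR (0.029). SYK measured 25.98, 24.1 and 22.7 FPKM at 24 h with rising dose.

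Beyond the 9, 109 tested genes of the receptor pathway were read in 7 lists. Of these, 6 rose and 1 fell at 25 µg/ml over all times, against 9.47% of all genes tested in either direction, and the median gene of the lists changed by 0.02, beside 0.02 for the median of all genes. Among 31 adaptors and exchange factors 2 rose and 1 fell: EVL, an actin regulator (0.23, SE 0.031, limma adjusted p = 0.00182), NCK2, an adaptor (0.14, SE 0.033, limma adjusted p = 0.0234), and SKAP1, an adaptor of integrin control (-0.19, SE 0.051, limma adjusted p = 0.0445). Among 22 phosphatases, ubiquitin ligases and other restraints of the receptor, INPP5D rose by 0.28 (SE 0.043, limma adjusted p = 0.00331) and the inhibitory adaptor DOK2 by 0.17 (SE 0.040, limma adjusted p = 0.0223). Among 22 effectors downstream of phospholipase C gamma, the calcineurin subunit gene PPP3CC rose by 0.19 (SE 0.042, limma adjusted p = 0.0176) and PRKD2, a protein kinase D, by 0.12 (SE 0.032, limma adjusted p = 0.0366).

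None of 12 receptor chains and co-receptors, 3 costimulatory or inhibitory receptors, 7 Src, Tec and Syk family kinases and regulators, and 12 partners of CD28 and phosphoinositide 3-kinase was called. INPP5D, whose protein Jurkat cells are known to lack, was low but measured: 5.82, 6.95 and 8.04 FPKM at 24 h with rising dose. At 12.5 µg/ml limma called none of the 109. From 6 to 24 h 18 rose and 7 fell, beside 19.3% of all genes. EVL and INPP5D each kept their call in 22 of 25 alternatives, SKAP1 in 9, PRKD2 in 11, NCK2 in 14, DOK2 in 16 and PPP3CC in 20. With correction for GC content and length 7 of the 109 were higher and 10 lower, beside 15.4% of all genes called, and with median centring 5 were higher and 6 lower, beside 9.64%.

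**Figure D5:**
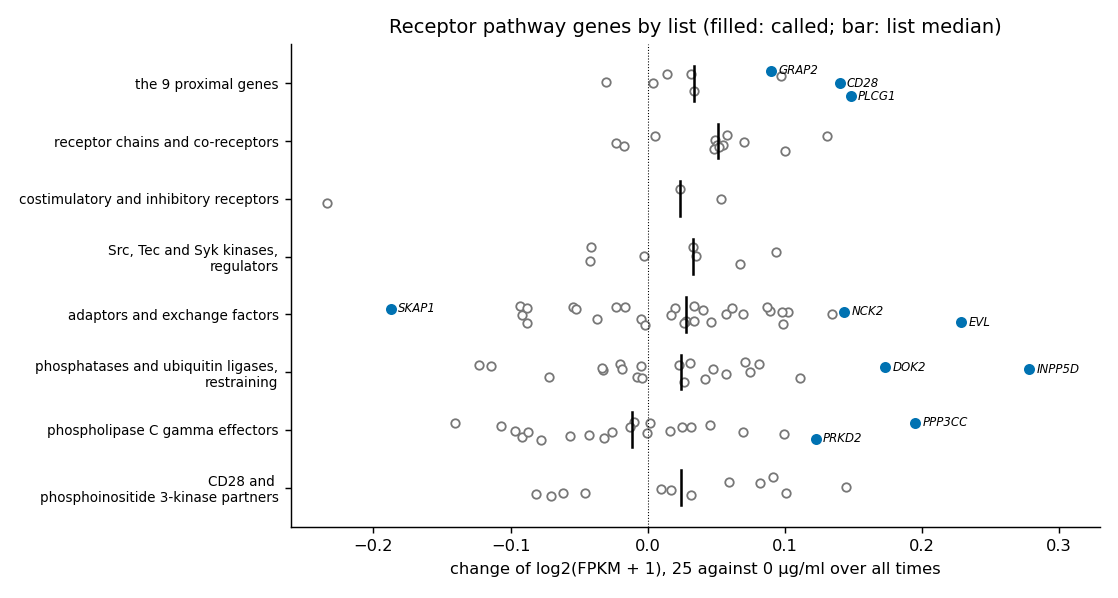
Change of log2(FPKM + 1) at 25 against 0 µg/ml over all times for the 9 genes and for each list of receptor pathway genes; each point is 1 gene, filled points were called and are named, and the bar is the median of the list. Called genes lie between -0.19 (SKAP1) and 0.28 (INPP5D), and list medians lie near 0.

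Some members share sequence positions with other genes. In GENCODE v29 exons of PLCG1 overlap exons of PLCG1-AS1 and ZHX3 on the other strand, and exons of LAT and LCP2 also overlap opposite-strand genes. On the same strand, exons of PLCG1 overlap the pseudogene RPL23AP81 and those of LAT overlap AC109460.3, which stranded counting would not separate. The sources used here do not say whether counting used strand. How reads in the shared positions of PLCG1, LAT and LCP2 were assigned is therefore not known, and reads outside those positions are not affected.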

How the data were processed

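The authors deposited 1 table of FPKM values for 17 libraries of Jurkat RNA, and the submitters' processing notes name TopHat2 2.1.0. What quantified the reads, and against which build and annotation, is not given in the sources used here. The table had 25593 lines for 25548 symbols, and where a symbol was repeated (45 lines) its most abundant line was used. The 12015 genes with a mean of at least 1 FPKM were tested on log2(FPKM + 1) with limma 3.58.1 in R 4.3.3. The model had 1 mean per group of dose and time, 8 residual degrees of freedom and trended empirical Bayes moderation. Comparisons of times had sequencing lane as a term (7 residual degrees of freedom). Tests were two-sided, with Benjamini-Hochberg adjustment over all genes tested and calls at adjusted p below 0.05. An effect over all times averages those at 6, 12 and 24 h. FPKM keeps no read counts; relative depth came from the steps of 5115 genes below 0.3 FPKM (tolerance 0.03 on the log2 scale).

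The members and the lists were chosen with earlier results of these data known. All 9 members were tested in each comparison. The genes named beside them are up to 4 called genes of each pathway list by smallest p, the 2 nearest profiles of members that span at least 0.25, and the candidate INPP5D. Some genes taken by this rule are not reported here. Transcript GC content and length, from GENCODE v29 (GRCh38), were matched for 11194 genes tested (93.2%), and the correction removed a loess curve (span 0.3) from each library. That correction, and the alternatives for the pathway lists, were chosen after seeing the data. Duplicates correlated at 0.979 to 0.986 across genes and no pair of libraries was identical. The fit was tested in 20 simulations with independent noise, which lacked the deviations linked to GC content and length. Each simulation changed 200 of 12015 genes, while 1138 were called in the data, so the shares recovered need not carry over. Of genes given a change of 0.25 at 25 µg/ml, 67.2% were called over all times. For a change of 0.5 the share was 93.8%, and 4.99% of calls were false. Smaller changes, such as those of the members called over all times, were not simulated.
Alternatives changed the pseudocount to 0.1, the filter (none, or a mean of 5 FPKM), the scaling (median centring, quantile normalization), the lane handling or the replicate block, left out a time or single libraries, or corrected for GC content and length.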

Additional observations from a re-analysis of the deposited data

Results flagged for a closer look

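The effect of 25 µg/ml on LAT differed between times. It was 0.28 on the log2 scale at 24 h and -0.10 at 6 h. The difference was 0.38 (SE 0.071, limma adjusted p = 0.0225, interaction over all genes tested). Across 17 alternatives the difference lay between 0.17 and 0.43, and the call was lost in 8. The 25 µg/ml libraries at 6 h had deviations that fell with GC content (Spearman correlations of -0.23 and -0.28 across genes), and those at 24 h had 0.14 and 0.57. The untreated libraries had 0.11 and 0.07 at 6 h and 0.02 and -0.37 at 24 h. LAT transcripts have 61.3% GC. With correction for GC content and length the difference was 0.17 (limma adjusted p = 0.0816). What part GC content had in the difference was not tested.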

How the results depend on the processing

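Of 197 counts recomputed under alternatives, 159 stayed within 1.5 times the count reported or, where that was 0, stayed 0. Counts of 0 stayed 0 in 24 of 24 alternatives for 12.5 against 0 µg/ml and 24 of 25 for 25 against 12.5 µg/ml. So did all 13 and 11 at 6 and 12 h, and all 21 for 12 against 6 h. Counts above 0 stayed in 21 of 25 over all times, 11 of 14 at 24 h and 10 of 17 for the interaction. They stayed in 13 of 22 for 24 against 6 h and 11 of 25 for the pathway lists. For 25 against 0 µg/ml over all times the count of 3 members became 0 in lane 4, in lane 5, without 24 h and without 12 h libraries, each with fewer samples, and ranged from 2 to 3 when single libraries were left out. At 24 h the count of 6 ranged from 0 to 6 without single libraries, and was 2 with the GC correction and without replicate 2 of 25 µg/ml. The interaction count of 1 ranged from 0 to 4 without single libraries (4 without replicate 1 of 25 µg/ml at 24 h), that of 25 against 12.5 µg/ml from 0 to 1. For 24 against 6 h the count of 4 ranged from 0 to 5 without single libraries and was 1 in lane 4 and 1 with the replicate block. It was 1 without replicate 1 of 12.5 µg/ml at 24 or 6 h or untreated replicate 2 at 24 h, and 2 without untreated replicate 1 at 24 or 6 h or replicate 2 of 12.5 µg/ml at 24 h. For the pathway lists the count of 7 became 11 with median centring, 0 in each lane, 0 without 24 h, 2 without 12 h, 17 with the GC correction, 18 with that correction and the replicate block, 11 with it and without replicate 2 of 25 µg/ml at 24 h, and 2 to 10 without single libraries (2 to 4 without replicate 2 of the untreated or 25 µg/ml group at 24 or 6 h or either 25 µg/ml library at 12 h).

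Replicate numbers did not pair the libraries: same-numbered libraries of 1 time had deviations correlated at -0.18 to 0.03 (0 of 7 pairs over 0.1). Beside the 2 counts given, the replicate block moved no count of members or of pathway genes by over 1.5 times. Over all genes it took the calls for 12.5 against 0 µg/ml from 34 to 17, for 25 against 12.5 µg/ml from 34 to 21, for 25 against 0 µg/ml at 6 h from 27 to 8, for 24 against 6 h from 2316 to 1454 and for 12 against 6 h from 56 to 5. The interaction calls went from 396 to 264. The named genes that were called kept their sign in all 439 alternative values and their call in 291. Members that were not called changed sign in 132 of 1284 values, never with a call, and 22 values passed with the same sign, for example VAV1 over all times with quantile normalization (0.10, limma adjusted p = 0.0445) or with lane as a term (0.10, limma adjusted p = 0.0493). Groups held 1 or 2 libraries, which limits the precision, and absolute depth is unknown.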
